A study of Mus musculus with 20 samples.

Results

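Active regulatory elements of the mouse face were compared between the embryonic stages e11.5 and e13.5 (days after conception) by asking where peaks of histone H3 acetylated at lysine 27 (H3K27ac) were called in all tissues of one stage and in none of the other. The e11.5 set held 4 libraries (mandibular process, maxillary process, medial nasal plate and lateral nasal plate), and the e13.5 set held 3 (mandibular process, maxillary process and nose), all from wild-type (WT) embryos and from tissue of mixed cell types. Overlapping peaks of these 7 lists were merged into 36323 regions. A region was called early when it had a peak in all 4 e11.5 lists and in no e13.5 list (25 regions), late when it had one in all 3 e13.5 lists and in no e11.5 list (60 regions), and shared when all 7 lists had one (3464 regions). Regions within 1 kb of an annotated transcription start site were called proximal (13930), and the others distal (22393). The study as a whole had 10 H3K27ac libraries of wild-type mouse face with a peak list, and the 3 libraries of e15.5 that took no part in the rule served as a later time point.

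H3K27ac is placed on nucleosomes beside active promoters and active enhancers. Enhancers are regulatory sequences that raise transcription of a gene from a distance, and the mark is lost when an element falls silent. At the earlier stage the facial prominences are paired swellings of neural crest-derived mesenchyme under an epithelium, and by the later stage they have fused and cartilage, bone, muscle and palate have begun to form.

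Each library was a different tissue, with 1 library for a tissue at a stage. The spread within a stage therefore mixed facial regions with technical error, and the labels leave unsaid if 1 embryo gave several tissues. The lists held between 6571 and 25941 peaks, the number of reads behind them was unknown, and a region without a called peak may still hold signal below the threshold. Peaks were near 20 of 20 genes of a neural crest mesenchyme list, and likewise near 16 of 16 cell cycle and 15 of 15 housekeeping genes. They were near 7 of 10 heart genes, 2 of 10 liver genes and 1 of 15 Hox cluster genes, beside 13863 of all 21924 protein-coding genes. Near means within 1 kb of a start site or, for distal regions, nearest to it and within 100 kb.

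The central 300 bases of 7 stage-specific distal regions are given here because they are the elements themselves, 3 of the early class and 4 of the late class, on build mm10 (GRCm38). Each window lay inside a peak of every library of its own stage. Capitals mark matches on either strand to ACAAAG (SOX), TCAAAG (TCF/LEF), GGAATG (TEAD), TGTGGT (RUNX), CATCTG (an E-box bound by TWIST), TTGGCA (nuclear factor I, NFI), TAATTA (homeodomain) and TGANTCA (AP-1). The SOX and TCF/LEF strings share the letters CAAAG, and AP-1 and homeodomain strings had no match in these 7 windows.
early Exoc6b, chr6:84959681-84959980, plus strand: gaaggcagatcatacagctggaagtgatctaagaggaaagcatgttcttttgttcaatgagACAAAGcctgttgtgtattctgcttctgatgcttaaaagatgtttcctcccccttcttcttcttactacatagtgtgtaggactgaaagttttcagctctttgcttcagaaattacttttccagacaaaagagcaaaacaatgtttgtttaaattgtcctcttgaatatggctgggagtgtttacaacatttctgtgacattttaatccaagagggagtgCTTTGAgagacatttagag
early Tiparp, chr3:65587766-65588065, plus strand: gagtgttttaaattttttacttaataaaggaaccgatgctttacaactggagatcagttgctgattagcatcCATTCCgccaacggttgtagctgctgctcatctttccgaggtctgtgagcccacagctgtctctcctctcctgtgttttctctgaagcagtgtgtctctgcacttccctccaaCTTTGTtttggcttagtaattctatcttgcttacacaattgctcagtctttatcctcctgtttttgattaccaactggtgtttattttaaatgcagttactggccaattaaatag
early Zfp536, chr7:37337736-37338035, plus strand: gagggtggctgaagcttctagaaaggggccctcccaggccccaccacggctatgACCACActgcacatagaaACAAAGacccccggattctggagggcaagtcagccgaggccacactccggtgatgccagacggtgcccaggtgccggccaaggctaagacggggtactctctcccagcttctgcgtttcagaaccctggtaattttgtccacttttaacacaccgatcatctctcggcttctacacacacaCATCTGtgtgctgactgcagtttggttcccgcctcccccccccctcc
late Nfia, chr4:97868859-97869158, plus strand: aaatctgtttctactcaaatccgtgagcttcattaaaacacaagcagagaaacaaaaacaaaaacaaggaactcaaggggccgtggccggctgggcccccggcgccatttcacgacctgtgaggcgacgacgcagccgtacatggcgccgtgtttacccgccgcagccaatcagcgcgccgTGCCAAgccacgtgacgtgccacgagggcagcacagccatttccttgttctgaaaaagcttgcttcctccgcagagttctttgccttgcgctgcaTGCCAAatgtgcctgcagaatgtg
late Nfib, chr4:82000552-82000851, plus strand: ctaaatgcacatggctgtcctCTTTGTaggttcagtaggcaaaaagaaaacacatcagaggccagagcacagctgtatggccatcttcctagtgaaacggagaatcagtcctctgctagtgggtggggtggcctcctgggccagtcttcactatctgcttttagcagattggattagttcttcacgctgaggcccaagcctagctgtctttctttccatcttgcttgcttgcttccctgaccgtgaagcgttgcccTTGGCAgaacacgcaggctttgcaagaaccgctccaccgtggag
late Dab2ip, chr2:35513970-35514269, plus strand: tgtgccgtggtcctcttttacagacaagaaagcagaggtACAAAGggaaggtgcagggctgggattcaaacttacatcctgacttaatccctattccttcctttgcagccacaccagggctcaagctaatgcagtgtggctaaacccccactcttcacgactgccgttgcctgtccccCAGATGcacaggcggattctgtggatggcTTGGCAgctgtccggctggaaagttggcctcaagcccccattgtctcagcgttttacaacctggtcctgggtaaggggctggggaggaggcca
late Dlk1, chr12:109417114-109417413, plus strand: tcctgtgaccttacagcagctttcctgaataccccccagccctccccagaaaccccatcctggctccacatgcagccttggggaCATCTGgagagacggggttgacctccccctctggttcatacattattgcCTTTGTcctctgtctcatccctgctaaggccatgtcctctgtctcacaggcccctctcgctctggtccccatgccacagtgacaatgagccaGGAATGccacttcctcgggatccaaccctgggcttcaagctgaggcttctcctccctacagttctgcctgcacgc
The early windows came from an intron of Exoc6b, which encodes a subunit of the exocyst, and from intergenic sequence nearest to Tiparp, an ADP-ribosyltransferase, and to Zfp536, a zinc finger protein. The late windows came from an intron of Nfia and from intergenic sequence nearest to Nfib, which both encode NFI transcription factors, to Dab2ip, a Ras GTPase-activating protein, and to Dlk1, an imprinted Notch-related transmembrane protein. Of these late windows, those of Nfia, Nfib and Dab2ip held a TTGGCA match, and that of Dlk1 did not. The windows are examples and do not give the share over a class.

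The shares of matches were counted in the central 500 bases of all members. TTGGCA was found in 9 of 23 late distal regions (39.1%), in 5 of 22 early distal regions (22.7%) and in 27.2% of all 22393 distal regions. Among proximal regions it was found in 12 of 37 late regions (32.4%) against 18.1% of all 13930. ACAAAG was found in 11 of 22 early and 9 of 23 late distal regions, beside 44.9% of all distal regions. TCAAAG was found in 40.9% of early, 26.1% of late and 32.8% of all distal regions, and GGAATG in 5 early regions, 3 late regions and 29.4% of all. TGTGGT was found in 40.9%, 30.4% and 32.0%, and CATCTG in 45.5%, 43.5% and 39.2%. With 22 and 23 distal members, each of these shares rests on few regions, and a match describes letters, not a binding site. TAATTA was found in 2 early and 2 late distal regions, beside 12.0% of all, and TGANTCA in 1 and 2, beside 14.9%. Of further strings, the E-box CAGCTG was found in 11 of 22 early and 6 of 23 late distal regions, beside 30.4% of all, and GCCNNNGGC (AP-2) in 2 and 7, beside 3354 of all 22393.

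The early and the late class differed in where they lay. Of the 25 early regions, 22 were distal (88%, exact 95% binomial interval 68.8 to 97.5%) and 3 were proximal. Of the 60 late regions, 23 were distal (38.3%, 26.1 to 51.8%) and 37 were proximal (61.7%). This split of the late class rested on the libraries used, since 135 of 211 late regions were distal without the e13.5 maxillary process, 126 of 592 without the e13.5 mandibular process, and 16 of 174 with lists of equal length. Early regions were distal in 140 of 200 with lists of equal length and in 290 of 363 without the e13.5 nose. Of the 3464 shared regions, 404 were distal (11.7%) and 3060 proximal. As shares of all merged regions, early regions made up 0.0688%, late regions 0.165% and shared regions 9.54%. Split by kind, the early class took 0.0215% of proximal and 0.0982% of distal regions, the late class took 0.266% and 0.103%, and the shared class took 22% and 1.8%. These shares follow from the rule and are given as a description. Distal peaks made up 35.4%, 32.7%, 49.9% and 51.3% of the e11.5 lists (mandibular, maxillary, medial and lateral nasal) and 25.6%, 16.8% and 50.9% of the e13.5 lists (mandibular, maxillary and nose), so the lists themselves differed in this share within a stage.

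The size of each class depended on single lists, both long and short. A further 336 regions, of which 267 were distal, had a peak in all 4 e11.5 lists and in the nose list alone at e13.5, which was the longest of the 7 (25941 peaks). The mandibular list alone at e13.5 accounted for 2 such regions and the maxillary list for 0. On the late side, 528 regions lacked only the e13.5 mandibular list (6887 peaks) and 151 lacked only the e13.5 maxillary list, while 87 had all e13.5 lists plus the lateral nasal plate alone and 50 plus the medial nasal plate alone. The 2 nasal plates had the longest e11.5 lists (20492 and 21689 peaks). Neighbouring counts therefore exceeded the classes, as the grid of list membership shows.

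**Figure D1:**
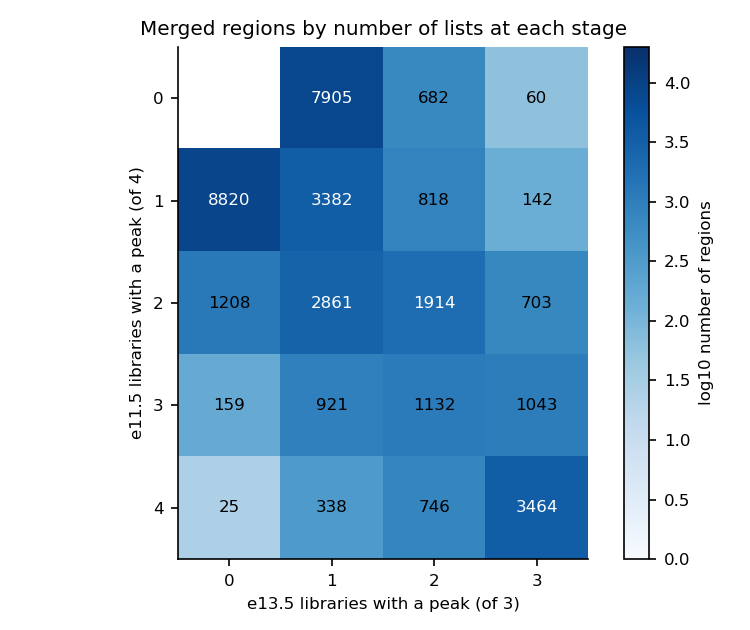
Number of merged regions by how many e11.5 lists (rows, 0 to 4) and how many e13.5 lists (columns, 0 to 3) had a peak in them, shaded by log10 of the number. The early class is the cell with 25 regions, the late class the cell with 60 and the shared class the cell with 3464, beside 338 regions in all e11.5 lists and 1 e13.5 list and 142 regions in all e13.5 lists and 1 e11.5 list.

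Most members were weak in at least 1 library of their stage. In the weakest library of their stage, the −log10 q of the peak had a median of 1.63 over early distal regions, 1.41 over early proximal, 1.41 over late distal and 1.61 over late proximal regions, where the lists begin at a q-value of 0.05. Ranked by −log10 q within a list, the best percentile of a member had a median of 72.2 for early distal, 69.0 for early proximal, 63.9 for late distal and 64.6 for late proximal regions. The member that came highest was the late distal region at Dab2ip, at a percentile of 93.4. When peaks were required to have a −log10 q of at least 2, 12 early and 30 late regions met the rule, of which 5 and 9 were among the regions described here. When each list was cut to its strongest 6571 peaks, the length of the shortest, the rule gave 200 early and 174 late regions, of which 5 and 4 were among them. The regions that passed under both settings were those at Col23a1 and Exoc6b among early regions and those at Nfia and Dab2ip among late regions.

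Among early distal regions the widest lay in an intron of Zfp521, a zinc finger transcriptional regulator, on chromosome 18 (4978 bp), followed by an intron of Zcchc24 (4400 bp). Peaks covered 2156, 1783, 3451 and 4850 bp of the Zfp521 region in the mandibular, maxillary, medial nasal and lateral nasal lists, and 1349, 1098, 4141 and 2210 bp of the Zcchc24 region. Both were wider in the nasal plates than in the mandibular and maxillary processes. The region between Msx1 and Stx18 on chromosome 5 lay 142.1 kb from Msx1, a homeobox gene needed for tooth and palate formation in the mouse, and 68.7 kb from Stx18, a SNARE protein of the endoplasmic reticulum. It was covered over 2284, 1002, 2982 and 2826 bp in the same order. The Exoc6b region, with the highest lowest −log10 q of the early class (2.99), was covered over 2607, 1850, 2005 and 1497 bp, and the region in an intron of Col23a1, a transmembrane collagen, over 2121, 2880, 2392 and 1908 bp. Coverage of these last regions did not follow the length of the lists.

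A few more early distal regions are named here after their values were seen. A region on chromosome 1 lay 27.4 kb from Gorab and 60.0 kb from Prrx1, a homeobox gene of craniofacial mesenchyme, and was covered over 1032, 1781, 2100 and 2228 bp. A region on chromosome 10 lay 110.9 kb from Hmga2, which encodes a chromatin protein abundant in growing embryonic tissue, and was covered over 465, 1193, 1452 and 1472 bp. A region on the X chromosome lay 34.1 kb from the nearest start site of Gpc3, a cell-surface heparan sulphate proteoglycan that limits growth, and was covered over 1910, 1307, 1804 and 1532 bp. Distance does not show which gene an element acts on, and 13 of the 22 early distal regions were intergenic, 7 intronic and 2 overlapped an exon.

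The other early distal regions were 977 to 2919 bp wide. Within genes they lay in Skap1, a T cell adaptor, in Kifap3, a kinesin-II subunit, in Mnd1, a meiotic recombination factor, in Kcnj6, a potassium channel, and in an intron of Myo1d nearest to the start site of Cdk5r1, the activator of Cdk5. Outside genes the nearest start sites were those of Tiparp, Zfp536, Got2 (mitochondrial aspartate aminotransferase), Ankrd33, Gm11733, Prss12, Uqcrfs1, Nedd4 (a ubiquitin ligase) and Jazf1. The 3 early proximal regions lay at a start site of Gm26814 inside Ppp1r9a (neurabin), at Gm14267, 66.3 kb from Prex1, and 0.875 kb from a start site of Cdc42bpa, a Cdc42-binding kinase. Only the last was proximal to a protein-coding gene.

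Late distal regions were led in width by an intron of Plxnb2, a semaphorin receptor, on chromosome 15 (5447 bp). Its peaks covered 737, 1430 and 5302 bp in the e13.5 mandibular, maxillary and nose lists, so that most of its width came from the nose. The region 52.5 kb from Cxcl14, a chemokine, was covered over 3439, 2784 and 4354 bp, and the region 33.9 kb from Dlk1 over 3397, 2346 and 1840 bp. For Dlk1 the order was reversed, with the widest peak in the mandibular process. The region 7.82 kb from Anxa1, an annexin, was covered over 2413, 978 and 2863 bp.

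Both of the late regions nearest to an NFI gene were among the 10 widest distal ones. The Nfia region, 9.68 kb from a start site, was covered over 1895, 2701 and 2861 bp and had the highest lowest −log10 q of the late class (3.25). The Nfib region lay 497.0 kb from the nearest Nfib start site, in a stretch with no closer protein-coding gene, and was covered over 2205, 1671 and 3284 bp. The Dab2ip region was covered over 2502, 2520 and 2338 bp. Coverage at Dab2ip was nearly even, while the Nfib region was widest in the nose.

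The remaining late distal regions were 647 to 3961 bp wide. They lay nearest to Tarbp1, Efcab1, Trub1 (a pseudouridine synthase), Fam53b, Naif1, Rnaseh2b, Fer1l6, Ccdc54, Upk3a, Ptpdc1, Armh1, Gm21887, Abt1, Evx1, Atp6ap1l and Capn2 (a calpain). The Fam53b region overlapped the annotated genes Fam53b and Fgfr2, a fibroblast growth factor receptor, and an exon whose gene was not resolved. The Naif1 region lay in an intron of Slc25a25, and the Gm21887 region in an intron of Mid1, a ubiquitin ligase whose human gene is mutated in Opitz syndrome. In all, 15 of the 23 late distal regions were intergenic, 5 intronic and 3 overlapped an exon.

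Late proximal regions lay at genes of varied function. The widest, at Flnc (filamin C, an actin crosslinker of muscle), was covered over 4852, 2880 and 2955 bp in the mandibular, maxillary and nose lists. S100a10, the partner of annexin A2, was covered over 3555, 2032 and 4593 bp, and Rnf217 over 976, 1620 and 2982 bp. Ogn, which encodes the small leucine-rich proteoglycan osteoglycin, was covered over 1675, 3936 and 3660 bp, and P3h1, a prolyl 3-hydroxylase of collagen, over 2404, 3209 and 2778 bp. The P3h1 region also held the start site of AU022252, which runs in the other direction. Named after their values were seen, Ltbp4, a binding protein of latent TGF-β, was covered over 1076, 825 and 2613 bp, Anxa6 over 2826, 2876 and 2723 bp, and Egr1, an immediate early transcription factor, over 362, 1033 and 2108 bp. At Egr1, Ltbp4 and Rnf217 the nose list gave the widest peak, whereas Anxa6 was covered almost equally.

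The promoters of Ogn and P3h1 are shown, from 250 bases before to 50 after the RefSeq start site on GRCm38, because they stand for promoters with few and with more CpG dinucleotides. Capitals mark the strings named above together with GGGCGG (SP/KLF) and CCGGAA (ETS). Of 40 genes with a start site in an early or late proximal region, 26 had a RefSeq promoter that overlapped the region.
Ogn promoter, chr13:49607765-49608064, plus strand: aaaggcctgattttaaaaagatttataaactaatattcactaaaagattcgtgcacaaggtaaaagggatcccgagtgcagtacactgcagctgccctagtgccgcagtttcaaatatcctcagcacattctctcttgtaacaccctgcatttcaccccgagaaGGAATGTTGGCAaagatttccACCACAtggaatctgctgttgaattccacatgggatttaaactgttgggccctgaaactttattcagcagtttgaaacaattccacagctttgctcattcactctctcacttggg
P3h1 promoter, chr4:119232665-119232964, plus strand: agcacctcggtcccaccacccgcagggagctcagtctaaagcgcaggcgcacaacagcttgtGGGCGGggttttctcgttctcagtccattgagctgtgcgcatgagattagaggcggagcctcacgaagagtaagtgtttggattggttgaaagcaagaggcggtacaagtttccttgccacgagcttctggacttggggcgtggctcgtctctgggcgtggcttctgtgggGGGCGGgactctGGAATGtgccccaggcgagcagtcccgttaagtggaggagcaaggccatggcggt
The Ogn promoter had a GC content of 42.3% and 4 CpG dinucleotides, with GGAATG directly before TTGGCA and a TGTGGT match further on. The P3h1 promoter had a GC content of 59.7%, 18 CpG dinucleotides, a pair of GGGCGG matches and GGAATG. Over 32851 RefSeq promoters of this length, TTGGCA was found in 14.1%, GGAATG in 14.7%, TGTGGT in 16.8% and GGGCGG in 35.7%.

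In the central 500 bases, late proximal regions had a median GC content of 59% and a median of 18 CpG dinucleotides, against 62% and 37 in shared proximal regions and 58.6% and 28 in all proximal regions. Late distal regions had a median GC content of 49.4%, early distal regions 46.2%, shared distal regions 50.6% and all distal regions 47.2%. GGGCGG was found in 51.4% of late, 67.7% of shared and 56.8% of all proximal regions.

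The other late proximal regions were 923 to 2826 bp wide. They held or adjoined start sites of B3gnt9, Tbxa2r (the thromboxane receptor), Sptbn1 (a β-spectrin), Sec24d (a coat protein of vesicles that leave the endoplasmic reticulum), Iqsec1, Chd9, Abca9, Cd9 (a tetraspanin), Adcy4 (an adenylate cyclase), Dapk3, Fbxo46, Bet1, Cd302, Zbtb38, Gcfc2, Ifi44l, Rbak, Psmd2 (a proteasome subunit), Polb (a DNA polymerase), Lysmd4, Cd200, Dmwd, Ntn5, Srbd1, Fbxl2, Zfp747 and Ogfrl1. One more lay at 4933427I22Rik, 33.2 kb from Klhdc7a, and Chd9, a chromatin remodeller, had 2 such regions, of which one was proximal through Gm45643. The map of covered bases shows all 85 members.

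**Figure D2:**
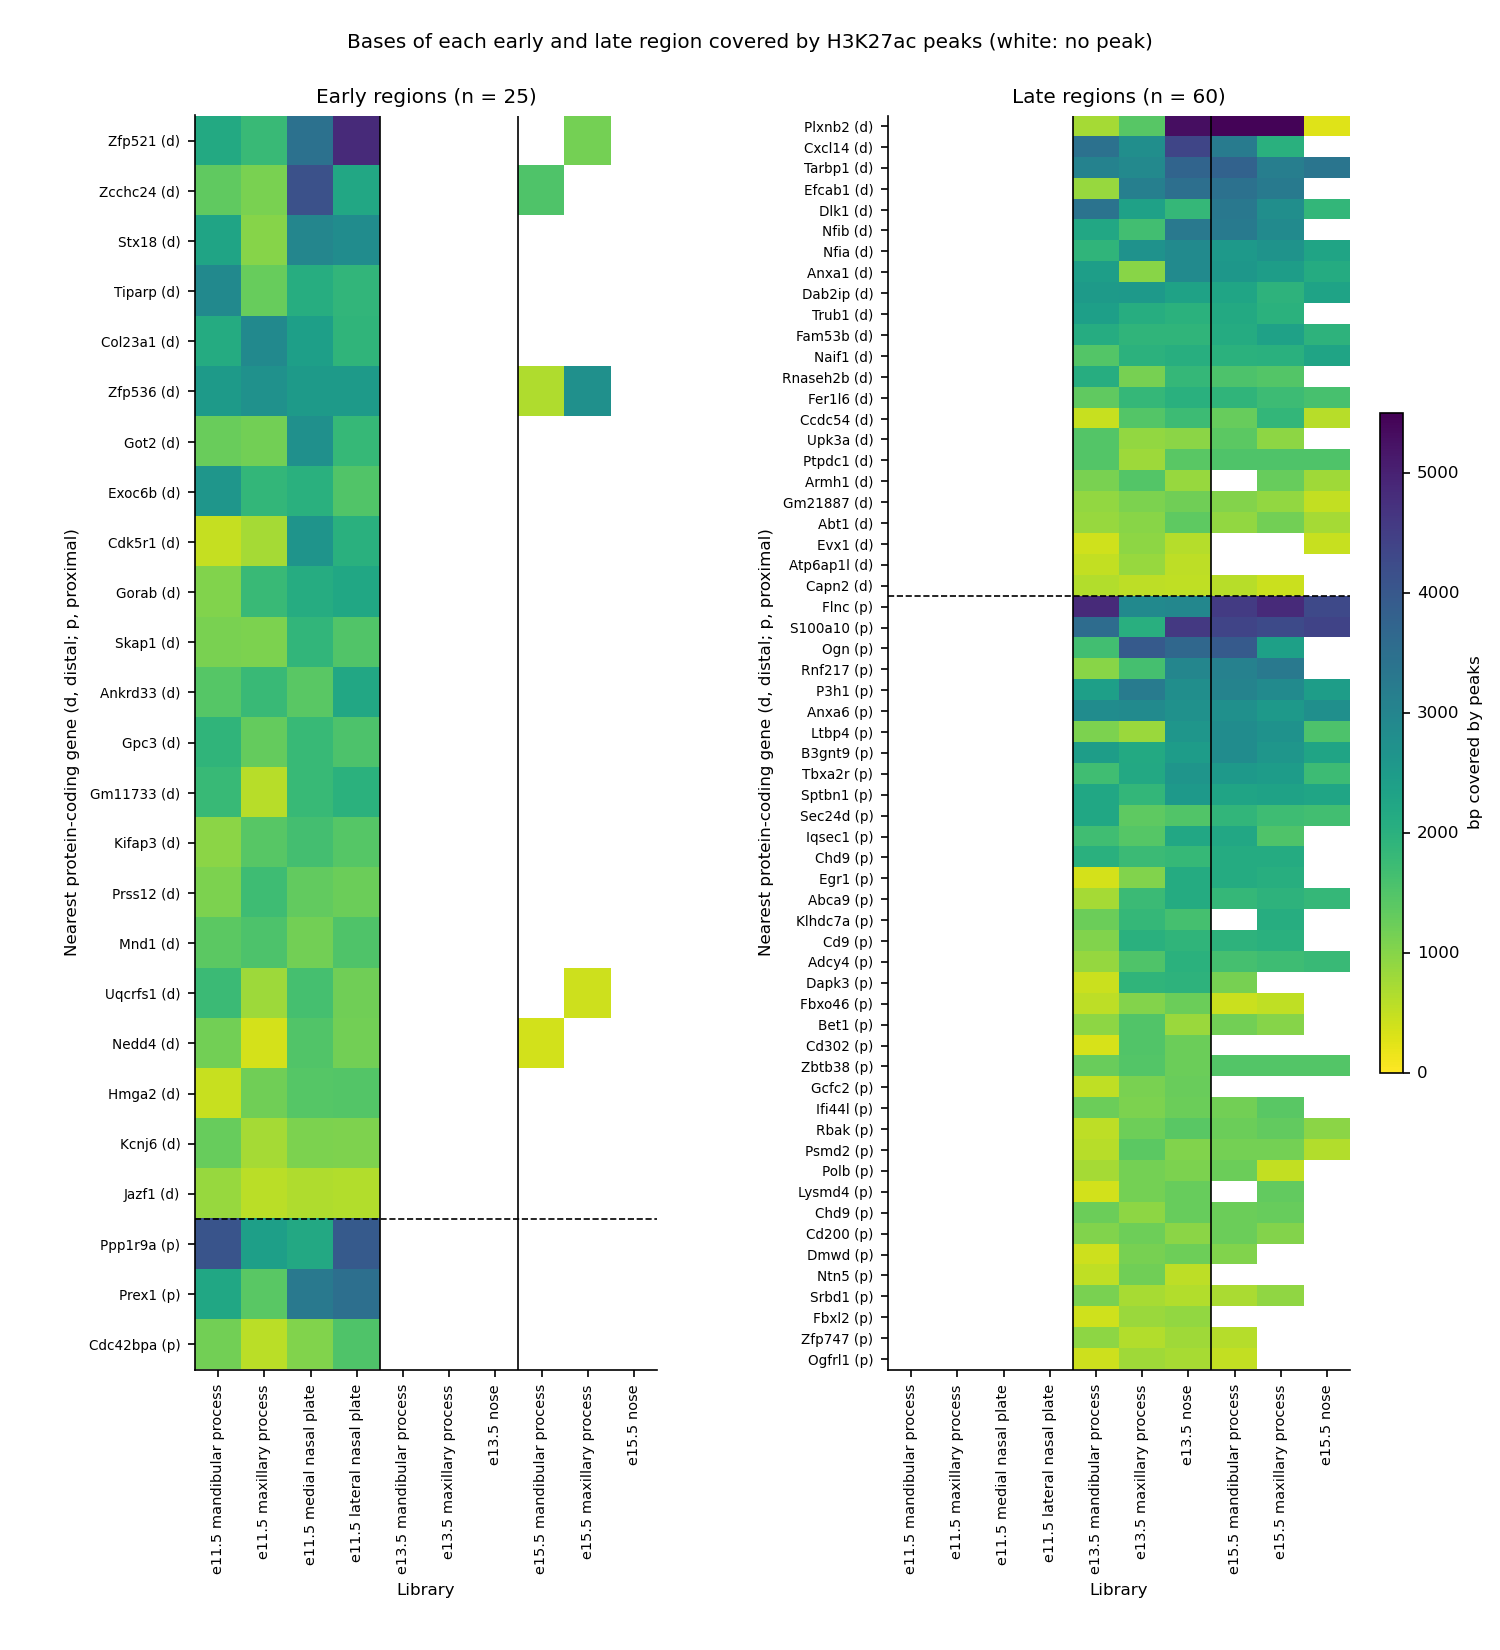
Bases of each early (25, left) and late (60, right) region covered by peaks, by library as labelled (columns) and by nearest protein-coding gene (rows, distal regions above the dashed line), with white where no peak was called. The empty blocks at e13.5 for early and at e11.5 for late regions are set by the rule, whereas the e15.5 columns are not: early rows are mostly white there and late rows mostly filled, less so in the library labelled nose.

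The e15.5 libraries were not used by the rule, so whether a region was still marked at e15.5 is a separate measurement. Of the 25 early regions, 3 had a peak in the library labelled mandibular process (12%, exact 95% binomial interval 2.55 to 31.2%), 3 in the library labelled maxillary process (12%) and 0 in the library labelled nose (at most 13.7%). Of the 60 late regions, 51 had a peak in the first (85%, 73.4 to 92.9%), 50 in the second (83.3%, 71.5 to 91.7%) and 29 in the third (48.3%, 35.2 to 61.6%). These 3 libraries held 19817, 16572 and 7728 peaks in the same order. The intervals of the classes did not overlap in any of the 3 libraries. The peak names inside each e15.5 list give another tissue than the sample's label does, so these libraries are named by label and the tissue is not relied on.

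A region found in more lists is more likely to be found again, so the classes were set beside all regions present in as many lists. Of the 3002 regions in exactly 4 of the 7 lists, 75.6%, 61.6% and 17.1% had a peak in the libraries labelled mandibular process, maxillary process and nose. Of the 3898 regions in exactly 3 lists, 53.7%, 37.9% and 9.06% had one. In each of the 3 libraries the interval of the early class lay below the share for 4 lists and that of the late class above the share for 3 lists. The comparison matches the number of lists and not which lists they were. Of the 3898 regions, 2861 had a peak in 2 e11.5 lists and 1 e13.5 list. The lists differ in length, so an effect of stage cannot be told apart here from an effect of the lists a region was in. For shared regions the shares were 99.5%, 99.1% and 81.9%, and for all merged regions 44.7%, 37.1% and 16.1%.

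**Figure D3:**
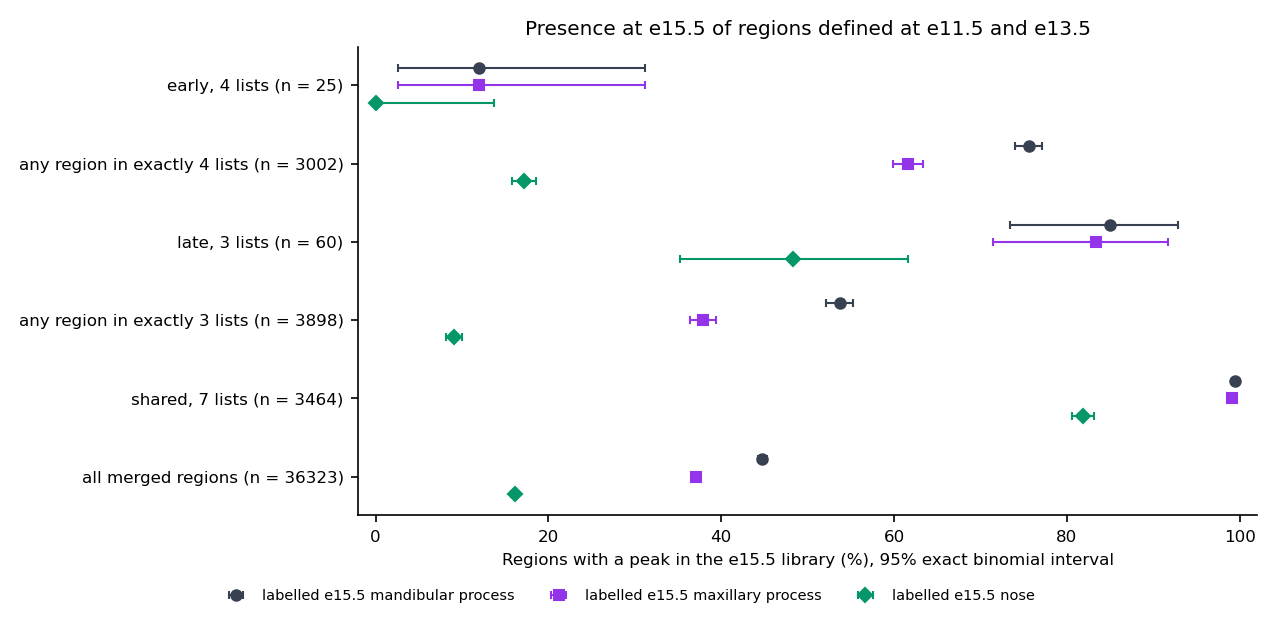
Percent of regions with a peak in each e15.5 library (points by library as labelled, bars the exact 95% binomial interval, which covers counting error over regions only). Early regions lie at 0 to 12% and late regions at 48.3 to 85%, beside 17.1 to 75.6% for any region in exactly 4 lists and 9.06 to 53.7% for any region in exactly 3.

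The few early regions that were marked at e15.5 were those at Zfp536, with 651 and 2746 bp covered in the libraries labelled mandibular and maxillary process, at Zfp521 (1144 bp, maxillary), at Zcchc24 (1505 bp, mandibular), at Uqcrfs1 (422 bp, maxillary) and at Nedd4 (375 bp, mandibular). The other 20, with the regions nearest to Stx18, Gorab, Hmga2 and Gpc3 among them, had no peak in any e15.5 library. Of the late regions, 27 had a peak in all 3 e15.5 libraries, 21 in 2, 7 in 1 and 5 in 0. The regions at Nfia (2552, 2673 and 2287 bp), Dlk1 (3301, 2781 and 1865 bp), Dab2ip (2261, 1940 and 2306 bp), Flnc (4544, 4852 and 4283 bp) and S100a10 (4364, 4264 and 4399 bp) were covered in all 3. Those at Ogn, Egr1, Nfib, Cxcl14 and Rnf217 were covered in the libraries labelled mandibular and maxillary process and not in that labelled nose. The list labelled nose was the shortest of e15.5 (7728 peaks), and a region without a peak there may hold signal below the threshold. The 5 late regions with no e15.5 peak were at Atp6ap1l, Cd302, Gcfc2, Ntn5 and Fbxl2, which were among the narrower ones (855 to 1490 bp).

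By kind, 20, 21 and 15 of the 23 late distal regions had a peak in the libraries labelled mandibular process, maxillary process and nose, against 27.2%, 20.3% and 5.02% of all distal regions. Of the 37 late proximal regions, 31, 29 and 14 did, against 73.0%, 64.1% and 33.9% of all proximal regions. The exact 95% intervals of the late proximal class (68.0 to 93.8%, 61.8 to 90.2% and 22.5 to 55.2%) spanned the share of all proximal regions in each library. They lay above the shares of proximal regions in exactly 3 lists (66.5%, 46.9% and 11.8%). Comparisons by kind again match the number of lists only. The late distal intervals (66.4 to 97.2%, 72.0 to 98.9% and 42.7 to 83.6%) lay above the shares of distal regions in exactly 3 lists (45.2%, 31.9% and 7.21%). Of the 22 early distal regions 3, 3 and 0 had a peak, against 57.5%, 45.5% and 11.7% of distal regions in exactly 4 lists, and in the library labelled nose the interval of the early distal class (0 to 15.4%) spanned that share.

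Shared proximal regions were found at genes of many lists. Of the 20 genes of the neural crest mesenchyme list, which holds transcription factors such as Twist1, Prrx1 and Msx1, 10 had a shared proximal region and 0 an early or a late one. Of 20 jaw patterning genes 5 had a shared proximal region, of 20 genes for the growth programme of young embryonic tissue 12, of 20 palate genes 6, of 20 BMP and TGF-β response genes 11 and of 14 Hedgehog response genes 7, beside 10 of 15 housekeeping genes and 3387 of all 21924 protein-coding genes. The tendon, olfactory, macrophage, erythroid, heart, liver and Hox cluster lists had 0 shared regions.

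Stage-specific regions fell on almost no gene of the 27 lists. No list gene had an early region within the distances set above, and the early region nearest to Hmga2 lay 110.9 kb away. A late region was found at Ogn, of the 20 connective tissue matrix genes, and at Egr1, which was in both the tendon list (11 genes) and the FGF response list (15 genes). Over all 21924 protein-coding genes 20 had an early distal region (0.0912%), 20 a late distal (0.0912%) and 39 a late proximal region (0.178%). At such shares the counts in the lists do not set their genes apart.

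The widths of shared regions were compared first as 1 value per library. In shared proximal regions the median bases covered were 2094, 1707, 2360.5 and 2255 at e11.5 (mean 2104 ± 287, SD, n = 4) and 2314.5, 2399.5 and 2592 at e13.5 (2435 ± 142, SD, n = 3), which overlapped between stages (exact two-sided permutation p = 0.143, adjusted p = 0.357). In shared distal regions they were 2496, 2155.5, 2877.5 and 2751 at e11.5 (mean 2570 ± 319, SD) and 2764, 2590.5 and 3388.5 at e13.5 (mean 2914 ± 419.7, SD; exact permutation p = 0.343, adjusted p = 0.429). Shared distal regions were wider than proximal ones in all 7 libraries. Within each facial region (mandibular, maxillary, nasal) the e13.5 median exceeded each e11.5 median for both kinds, while across tissues the stages overlapped and the test, which does not pair tissues, did not pass. Over all peaks the median width was 1482 ± 132 bp at e11.5 and 1725 ± 86.3 bp at e13.5, the closest of these values to the threshold (exact permutation p = 0.0571, adjusted p = 0.286), and no e13.5 library was narrower than the widest e11.5 library, the mandibular process (1640 against 1643 bp in the nose). The number of peaks (14289 ± 7905 against 14527 ± 10072; exact permutation p = 0.971) and the distal share (42.3 ± 9.63% against 31.1 ± 17.7%; exact permutation p = 0.343) overlapped between stages. The 35 ways to assign 4 and 3 libraries allow no p below 0.0286, and the adjustment was over these 5 values.

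Region by region, 2 of the 3464 shared regions were wider at e13.5 and 0 narrower relative to the other shared regions of their library (limma, Benjamini-Hochberg adjusted p under 0.05, 0.0577% and 0% of those tested). At an unadjusted p under 0.05 limma gave 134 wider and 118 narrower. Without subtracting each library's median, limma gave 347 wider and 5 narrower at that unadjusted p, so the near balance is one relative to the library's median, and again 2 and 0 passed after adjustment. The first was the promoter of Smarca2, which encodes an ATPase of the BAF chromatin remodelling complex, with 1365, 910, 1997 and 1074 bp at e11.5 and 4438, 4413 and 4830 bp at e13.5 (log2 difference 1.62 ± 0.21, SE, limma adjusted p = 0.0382). The second lay 46224 bp from a start site of Fgfr1, a fibroblast growth factor receptor, with 1880, 1341, 1552 and 1367 bp against 4848, 4460 and 4660 bp (log2 difference 1.40 ± 0.18, limma adjusted p = 0.0382). In both, every e13.5 library exceeded every e11.5 library. With the facial region as a block in limma the adjusted p was 0.076 for Smarca2 and 0.067 for Fgfr1, and 0 regions passed. Without the medial nasal plate 1 wider region passed, and without any other single library 0 did, while 1 narrower region passed without the e13.5 nose.

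Whether or not limma called them, the centred widths of the stages did not overlap in 142 regions that were wider at e13.5 (4.1% of shared regions). Smarca2 and Fgfr1 were among these. The same held for 174 regions that were narrower (5.02%). Besides Smarca2 and Fgfr1, the largest difference on the wider side was at Zfp503, a zinc finger repressor (2363, 1719, 3588 and 6268 bp at e11.5 against 9771, 10039 and 8989 bp). Regions nearest to Dpm1, Ccnd3, Ston1, Cd81, Tuba1a (30837 bp away), Bend5 and 2010111I01Rik followed. From Zfp503 on, the log2 differences ran from 1.42 down to 1.12, with limma adjusted p from 0.056 to 0.642. A region 11668 bp from Ccnd3, a D-type cyclin, was covered over 1285, 1275, 1049 and 1399 bp against 3345, 3527 and 3638 bp. On the narrower side the largest was the distal region 24145 bp from Tgfbi, an extracellular matrix protein induced by TGF-β, with 4200, 3518, 5029 and 4453 bp at e11.5 and 1546, 1723 and 3247 bp at e13.5 (log2 difference −1.27 ± 0.22, limma adjusted p = 0.099). It was followed by regions nearest to Nprl3, Irs2 (80956 bp away), Lix1, Inpp4b, Bcor (72238 bp away), Hist1h2bk, Tlk1, Lin9 and Vps8. Their log2 differences were −1.10 to −0.74, with limma adjusted p from 0.316 to 0.655. Apart from Smarca2 and Fgfr1, none of the regions named here passed the test.

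**Figure D4:**
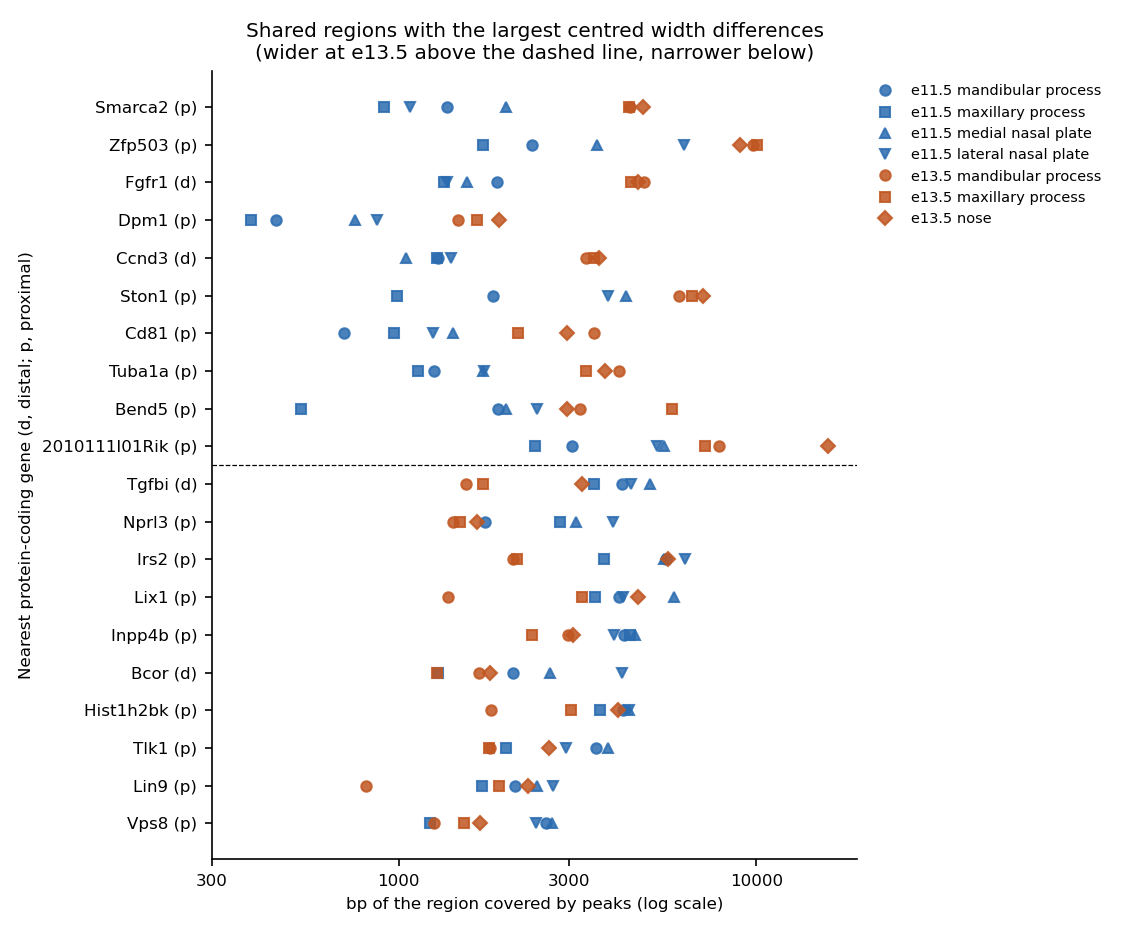
Bases covered by peaks (log axis) in the 10 shared regions with the largest centred width difference in each direction, 1 point per library, e11.5 in blue and e13.5 in orange. In the upper rows every e13.5 library lies above every e11.5 library, and in some lower rows (Irs2, Lix1, Bcor, Hist1h2bk, Tlk1, Lin9, Vps8) the raw widths overlap and part only after each library's median was subtracted.

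More shared regions passed limma in relative enrichment than in width, while the log2 differences were spread alike. Their quartiles were −0.19 and 0.15 for relative enrichment and −0.17 and 0.17 for width. Relative enrichment was log2 of the highest fold enrichment of a peak in the region less the library's median over shared regions. It is therefore a level relative to the other shared regions of that library. With limma, 10 regions were higher at e13.5 (0.289%) and 81 lower (2.34%) at an adjusted p under 0.05. All 10 higher regions were proximal, whereas the 81 lower ones were 43 proximal and 38 distal. Without the e13.5 maxillary process 0 higher and 1 lower region passed. Without the e13.5 nose 2 and 30 passed, and without the medial nasal plate 2 and 46.

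The largest fall was at a start site of Gm35333, 164530 bp from Dapk1, with fold enrichments of 6.98, 6.65, 13.03 and 12.05 at e11.5 and 3.64, 2.84 and 6.23 at e13.5 (log2 difference −1.16 ± 0.17, limma adjusted p = 0.00204). A distal region 8091 bp from Rin2, a Rab5 exchange factor, had 7.17, 9.94, 11.95 and 11.69 against 3.13, 4.38 and 6.64 (−1.11 ± 0.17, limma adjusted p = 0.00204). Regions nearest to Phyhip (−1.03), Spsb1 (−1.02) and Msrb3 (−0.96) followed, with limma adjusted p of 0.0045, 0.00603 and 0.00914. In each of these 5 regions all e13.5 libraries lay below all e11.5 libraries once each library's median was subtracted.

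On the higher side the promoter of Patj, a polarity protein of epithelial junctions, had fold enrichments of 3.74, 3.56, 2.82 and 3.05 at e11.5 and 4.38, 5.96 and 9.21 at e13.5 (log2 difference 0.97 ± 0.22, limma adjusted p = 0.0203). Trim39 (0.79), Lig3, a DNA ligase (0.73), Armh3 (0.69) and Commd3 (0.68) followed, with limma adjusted p of 0.0139, 0.0127, 0.0204 and 0.0367. Their raw enrichments were highest in the e13.5 nose. Once each library's median over shared regions was subtracted, only Commd3 was highest there (0.53). Patj then had 0.13, 0.35 and 0.12 in the e13.5 mandibular, maxillary and nose libraries.

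Chosen after their values were seen, from the genes of the lists, several genes of matrix, growth and signalling were among those that fell. The promoter of Fn1, the gene of fibronectin, fell by 0.74 and a distal region of Fstl1 by 0.81 on the log2 scale (limma adjusted p = 0.013 for both). In the growth programme list a distal region of Ccnd2, a D-type cyclin, fell by 0.84 (limma adjusted p = 0.0095) and the promoter of Igf2bp1, an RNA-binding protein of embryonic tissue, by 0.58 (limma adjusted p = 0.0496). A distal region of Smad7, an inhibitor of TGF-β signalling, fell by 0.75, the promoter of Crabp2, a retinoic acid-binding protein, by 0.74, and that of Pgk1, a glycolytic enzyme of the housekeeping list, by 0.68 (limma adjusted p = 0.0127, 0.0122 and 0.025). The distal regions of Fstl1, Ccnd2 and Smad7 were centred together with proximal regions, and the median over all shared distal regions was −0.23. The promoter of Zeb2, a transcription factor of neural crest mesenchyme, was the only list region called higher (0.64, limma adjusted p = 0.0478).

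By list, 0 of the 8 shared regions of connective tissue matrix genes were higher at e13.5 (2 called lower, median log2 −0.27) and 3 of 14 of the growth programme (2 called lower, median −0.24). Of Hedgehog response genes, 1 of 13 was higher with none called (median −0.21), and of BMP and TGF-β response genes 7 of 19 (1 called lower, median −0.18). Neural crest mesenchyme had 4 of 10 higher (1 called higher, median −0.08), jaw patterning 2 of 5 (median −0.01), palate 3 of 6 (median −0.01), cell cycle 2 of 4 (median −0.07), bone 3 of 8 (median −0.09), FGF response 1 of 8 (median −0.10), retinoic acid 4 of 9 (1 called lower, median −0.06) and housekeeping 3 of 11 (1 called lower, median −0.10). Over the regions of all protein-coding genes 1626 of 3258 were higher, 10 were called higher and 65 lower, with a median of −0.0005. For relative width the medians were 0.01 for connective tissue matrix, −0.22 for the growth programme, −0.16 for neural crest mesenchyme and 0.18 for jaw patterning, so width moved further than enrichment in the last 2 of these lists, and Fgfr1 was the one list gene that passed. The lists share genes, and several hold few regions. They also mix proximal and distal regions in unlike shares. A shared distal region was found at 3 of 20 connective tissue matrix, 3 of 14 Hedgehog and 5 of 20 BMP and TGF-β response genes, beside 315 of all 21924. Over all shared distal regions the median enrichment difference was −0.23, against 0.01 over proximal ones. The list values were not split by kind, so a trait of the genes cannot be told apart from this difference.

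Distal and proximal shared regions parted in relative enrichment. The median log2 difference, e13.5 minus e11.5, was −0.23 over the 404 distal regions, of which 90 (22.3%) were higher at e13.5, and 0.01 over the 3060 proximal regions, of which 1590 (52.0%) were. As 1 value per library, the distal median less the proximal median of log2 fold enrichment was 0.01, 0.02, −0.04 and −0.08 in the e11.5 mandibular, maxillary, medial nasal and lateral nasal libraries and −0.14, −0.43 and −0.33 in the e13.5 mandibular, maxillary and nose libraries. The stages did not overlap (difference −0.27, exact two-sided permutation p = 0.0286, the smallest these libraries allow). The value was computed after the difference had been seen in the fit. Within each facial region the e13.5 library lay below its e11.5 counterpart. The same value for width did not part (difference −0.04, exact permutation p = 0.657). When proximal and distal regions were centred separately, an alternative chosen after seeing the data, 13 distal regions were higher and 12 lower, and 6 proximal were higher and 53 lower, so the call on distal regions is one relative to proximal regions.

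**Figure D5:**
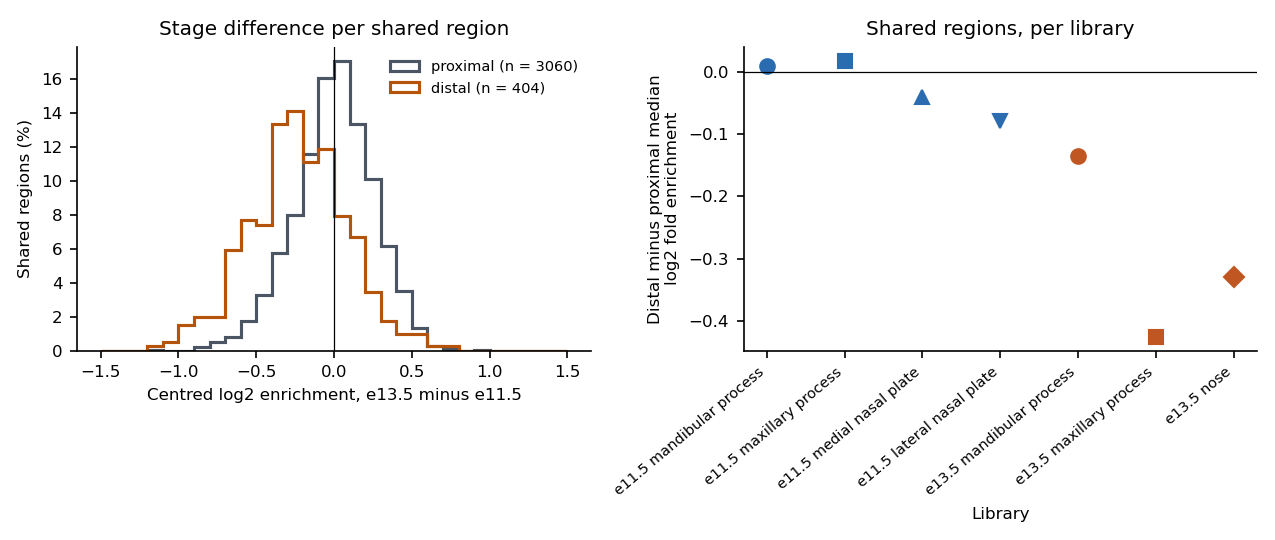
Left, share of shared regions (percent) by their centred log2 enrichment difference, e13.5 minus e11.5, for 3060 proximal and 404 distal regions. Right, distal minus proximal median log2 fold enrichment in each library (blue e11.5, orange e13.5), where the 4 e11.5 points lie between −0.08 and 0.02 and the 3 e13.5 points between −0.43 and −0.14.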

How the data were processed

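H3K27ac ChIP-seq peak lists of 10 wild-type face tissues were used, 4 of e11.5, 3 of e13.5 and 3 of e15.5, and 10 input samples were not analysed here. Per the labels, tissue was crosslinked, sonicated and precipitated with an anti-H3K27ac antibody. Build mm10, MACS2 2.2.4, BWA 0.7.7 and SAMtools 0.1.19 stand in the processing notes of the submitters, and the lists are broad peaks, 1 list per sample. For each peak the deposited lists give positions, a score, a fold enrichment (a ratio over the background estimated by the peak caller), and −log10 of the p-value and q-value, which the authors computed list by list. The score was 10 times the −log10 q rounded down in 144887 peaks, and was not used further. Reads behind each list are not given in the sources used here.

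Peaks on chromosomes 1 to 19, X and Y (100735 of 100760 in the 7 lists) were merged where they overlapped or touched, with start sites from all GENCODE vM21 transcripts (132666) and nearest genes from 21924 protein-coding genes. Peak ends lay within GRCm38 chromosome lengths in all 208 library and chromosome pairs. Width was the bases of a region covered by a library's peaks. Log2 widths and log2 highest fold enrichments of shared regions, less the library's median, were fitted with limma 3.58.1 (R 4.3.3), with Benjamini-Hochberg adjustment over all 3464 regions and a threshold of 0.05. Single values per library were compared with exact two-sided permutation tests over 35 assignments. Intervals are exact Clopper-Pearson, 95%, and cover counting error only. The scripts were tested on simulated data. Further tools were pysam 0.24.0, matplotlib 3.10.9, scipy 1.17.1, pandas 2.3.3 and numpy 2.4.6 under Python 3.11.15.

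Members, gene lists (410 of 411 genes found in the annotation, 27 lists) and tests were chosen with earlier results of these data known. Genes were named by a rule: the 10 genes with the most early and the most late distal regions, ties by width; the 5 widest early and late distal and proximal regions; for shared regions the 10 largest width differences in each direction that passed limma or, with fewer than 10, those whose groups did not overlap, and the 5 largest enrichment differences; and up to 4 genes a list. Alternatives were a −log10 q of at least 2, lists cut to 6571 peaks, a promoter window of 2.5 kb, merging across 500 bp, a minimum cover of 20% of the region, the facial region as a block, quantile or no centring, the widest single peak, and leaving out each library.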

Additional observations from a re-analysis of the deposited data

Results flagged for a closer look

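Within the e11.5 libraries, 2 of the early regions had a width in 1 library far from the others (by Dixon's criterion for 4 samples, which chance meets in about 1 in 20 groups). The region nearest to Zfp536 was covered over 2720 bp in the maxillary process, against 2511, 2508 and 2507 bp in the other libraries. The region nearest to Gm11733 was covered over 589 bp in the maxillary process, against 1799, 1800 and 1977 bp.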

How the results depend on the processing

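Requiring a −log10 q of at least 2 left 12 early (12 distal), 30 late (12 distal) and 2205 shared regions (198 distal), and cutting each list to 6571 peaks gave 200 early (140 distal), 174 late (16 distal) and 217 shared distal regions. Merging across 500 bp, a cover of 20% and a promoter window of 2.5 kb moved no class count by more than 1.5 times. With 1 library left out, early regions numbered 25 to 363 (363 without the e13.5 nose, 121 without the e11.5 maxillary and 79 without the e11.5 mandibular process) and early distal regions 22 to 290. Late regions numbered 62 to 592 (592 without the e13.5 mandibular and 211 without the e13.5 maxillary process, 148 and 110 without the lateral and medial nasal plates), and late distal regions 24 to 135. Shared regions numbered 3464 to 4257 and shared distal regions 404 to 598.

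In limma, wider regions numbered 0 with the facial region as a block, 4 with quantile normalization, 1 by the widest single peak, 0 at a −log10 q of at least 2, 1 with equal lists and 0 to 1 with 1 library left out. Narrower regions numbered 1 by the widest single peak, 1 with equal lists and 0 to 1 with 1 library left out. Regions of higher enrichment numbered 21 with the block, 19 with quantile normalization, 19 with proximal and distal regions centred separately (chosen after seeing the data), 6 at a −log10 q of at least 2 and 0 to 8 with 1 library left out. Those of lower enrichment numbered 134 with the block, 33 at a −log10 q of at least 2 and 1 to 92 with 1 library left out. The difference in peaks per library ran from −5468.5 to 4058.5 and was reversed without the e11.5 mandibular process (−1723.67), the e11.5 maxillary process (−2334) or the e13.5 nose (−5468.5). The cause of these changes was not tested. The block on facial region pairs the stages by tissue, with both nasal plates set against the nose, and the labels give no replicate numbers to pair on. The unknown number of reads limits every statement on a peak that was not called.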
